A study of Homo sapiens with 12 samples.

Results

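Genes that mark where a cell stands between an epithelial and a mesenchymal state were followed in A549 cells depleted of RNF113A and exposed or not to Cisplatin. The 10 genes, CDH1, CDH2, EPCAM, VIM, FN1, SNAI1, SNAI2, ZEB1, TWIST1 and ESRP1, were taken by symbol from the 26334 genes of the count tables. No rule on their values was used, but earlier results of these data were known when they were chosen. All 10 were among the 15352 genes tested. A549 is an established line from a human lung adenocarcinoma. The cells had been infected with lentiviruses that carried either an shRNA against RNF113A or a control shRNA, and every library, controls included, came from cells selected with puromycin at 1 µg/ml for 4 days. RNF113A is a zinc-finger ubiquitin ligase found in the spliceosome. Each of the 4 conditions (control untreated, control with Cisplatin, RNF113A-depleted untreated, RNF113A-depleted with Cisplatin) held 3 libraries of strand-specific mRNA sequencing, and Cisplatin, which crosslinks DNA, was labelled as 25 µg/ml for 20 h. Other experiments of the study give the Cisplatin dose in µM, so the unit for these libraries rests on the labels alone. The study's methods call the 3 libraries of a condition biological replicates, but neither they nor the labels say whether these were separate infections, and the p-values measure the spread between these libraries.

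Epithelial cells hold each other through E-cadherin (CDH1) and the adhesion molecule EPCAM, and they splice many transcripts under the control of ESRP1. In an epithelial-mesenchymal transition, the repressors SNAI1 (Snail), SNAI2 (Slug), ZEB1 and TWIST1 are known to silence CDH1 and other epithelial genes, while N-cadherin (CDH2), the intermediate filament protein vimentin (VIM) and the matrix protein fibronectin (FN1) increase. A549 cells are known for an intermediate state with both sets of genes expressed.

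The libraries held 33859097 to 56071514 read pairs, of which 26220526 to 45721152 were assigned to a gene. The 3 depleted libraries with Cisplatin had the fewest assigned pairs, 26220526 to 30806147, against 33660049 or more in the others. Their share assigned to no gene was the highest, 21.8% to 22.6%, against 14.0% to 18.9%. RNF113A itself had normalised read counts of 743, 707 and 725 in the untreated control libraries and 555, 572 and 612 in the untreated depleted libraries, and the ranges did not overlap. The depletion lowered its RNA by 0.31 on the log2 scale in untreated cells (edgeR adjusted p = 0.0247). In Cisplatin-treated cells, where the counts were 1144, 1047 and 997 against 908, 855 and 1047, the log2 difference of -0.14 did not pass (edgeR adjusted p = 0.233) and the ranges overlapped. Replicate 2 of both control conditions stood apart from its group, with a chi-square per gene of 60.3 to 91.7 against its fellow libraries, where all other pairs within a condition gave 3.88 to 17.0. Within its condition this library had the highest EPCAM and ESRP1 and the lowest VIM, so results for those genes are also given without both libraries, a choice made after seeing the data. The keratins KRT7, KRT8 and KRT18 were at 39119 normalised counts or above in every library, while KRT19 was at 24.4 to 193 and NKX2-1, a lung lineage factor, at 2.24 to 20.6. CDKN2A, a gene that A549 lacks, was at 0 in all 12 libraries. The surfactant genes SFTPB and SFTPC did not exceed 5 reads in any library. The summed count of 6 fibroblast markers was 25.3 to 88.8 in untreated control libraries, 32.9 to 53.2 in control libraries with Cisplatin, 84.6 to 116 in untreated depleted libraries and 43.2 to 72.1 in depleted libraries with Cisplatin. That of 7 leukocyte and endothelial markers was 106 to 182, 44.8 to 75.8, 133 to 152 and 51.1 to 109 in the same order, most of it from CD14.

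Depletion of RNF113A changed most of the 10 genes, in both directions. EPCAM and ESRP1 rose, FN1, CDH2, VIM and ZEB1 fell, and CDH1 fell as well. Over both treatments, 3 of the 10 passed (edgeR adjusted p under 0.05) as higher and 5 as lower, where 47.5% of all tested genes passed (23.5% higher and 24% lower), and 4 were called, that is, also changed at least 2-fold, against 11% of all genes. In untreated cells 2 were higher and 5 lower against a background of 27.4% (12.8% higher and 14.6% lower), and 4 were called against 8.66%. In Cisplatin-treated cells 3 were higher and 4 lower against 42.9% (21.1% higher and 21.8% lower), and 5 were called against 12.3%. The 3 depleted and 3 control libraries did not overlap for 8 of the 10 genes in untreated cells and for 7 in Cisplatin-treated cells, where this held for 43.1% and 57.6% of all genes. The members' median log2 fold change was -0.26 over both treatments, beside -0.0018 for all tested genes.

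Cisplatin also moved markers of both states in the same direction. CDH1, CDH2, EPCAM, FN1, ZEB1 and ESRP1 fell, while the repressor SNAI1 rose and SNAI2 was higher in every Cisplatin-treated library. Over both cell populations 2 genes were higher and 6 lower, against a background of 66.8% of all genes (34.8% higher and 32.1% lower), and 5 were called against 21.5%. In control cells 2 were higher and 4 lower against 55% (28% higher and 27% lower), and 3 were called against 19.8%. In depleted cells 2 were higher and 6 lower against 60.2% (32.4% higher and 27.8% lower), and 5 were called against 23.1%. Ranges were apart for 6 genes in control cells (56% of all genes) and for 9 in depleted cells (74.2%). The tests above used no pairs. With the control libraries as pairs, an alternative fit, 9 of the 10 passed in control cells, where 9110 of 14719 genes did. The members' median log2 fold change was -0.72, beside 0.03 for all tested genes. SNAI2 entered the test through its Cisplatin-treated libraries, since untreated libraries held 2 to 11 of its reads. It is 1 of the 2 genes counted as higher. It also stands in the counts of called genes, of ranges apart and of the pairs. None of these counts gives support for it. With at least 10 counts required in every library, SNAI2 drops out. Then 5 members passed and 2 were called in control cells, where 7475 and 2038 of 13159 genes did. In depleted cells 7 passed and 4 were called, against 8176 and 2451 genes. Over both populations 7 passed and 5 were called, against 8962 and 2121.

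**Figure D1:**
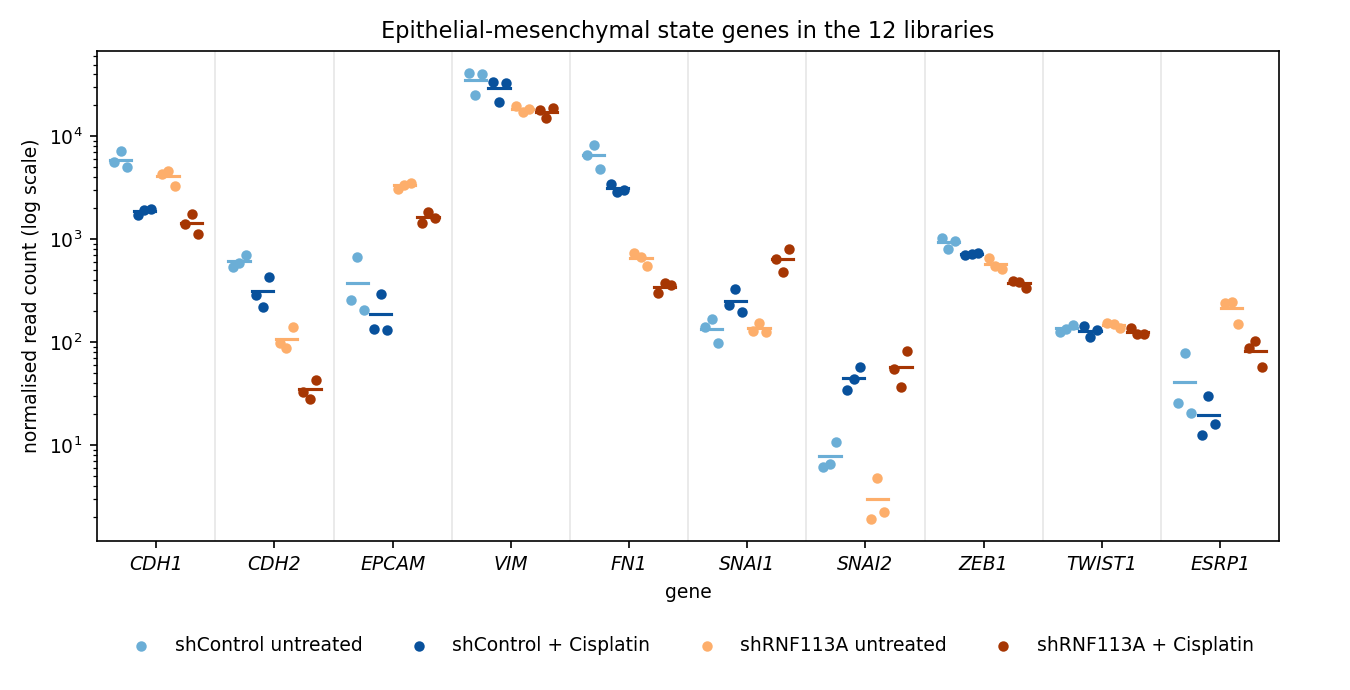
Normalised read counts (log axis) of the 10 genes in each of the 12 libraries, with a point for each library and a horizontal bar at the mean of the 3 libraries of a condition. Depleted libraries lie above all control libraries for EPCAM and below them for CDH2, FN1 and ZEB1, those for ESRP1 lie above the control libraries of the same treatment, and SNAI2 lies at 1.92 to 10.7 in untreated and 34.3 to 81.2 in Cisplatin-treated libraries.

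**Figure D2:**
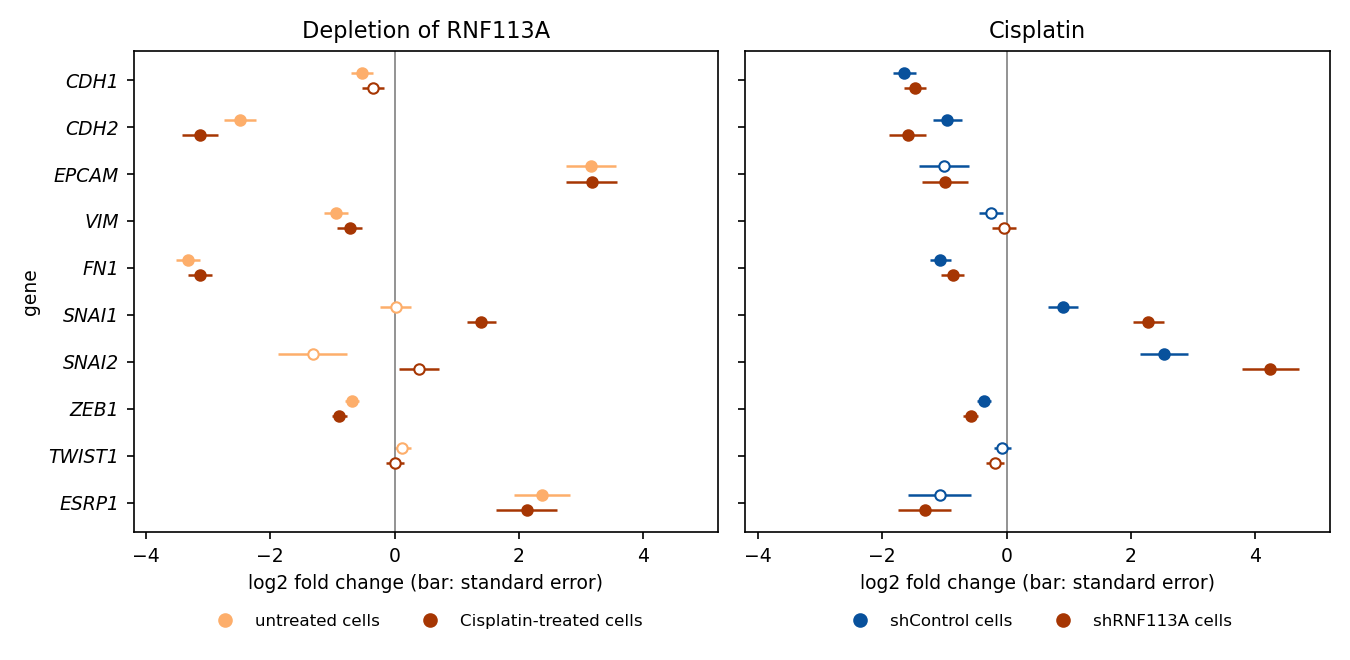
Log2 fold changes of the 10 genes with their standard errors, on the left for the depletion of RNF113A in untreated and Cisplatin-treated cells, and on the right for Cisplatin in control and depleted cells. Filled points passed an adjusted p of 0.05 and open points did not, SNAI2 entered the test through its Cisplatin-treated libraries, and EPCAM lies at 3.16 and 3.17 for the depletion while FN1 lies at -3.33 and -3.13.

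E-cadherin, the calcium-dependent adhesion molecule of epithelial junctions, is encoded by CDH1 (ENSG00000039068.14, chr16:68771128-68869451, plus strand; all coordinates are hg19, from Gencode v19). Its normalised counts were 5606, 7162 and 5014 in untreated control libraries and 4308, 4647 and 3314 in untreated depleted libraries. With Cisplatin they were 1735, 1927 and 1983 in control and 1402, 1764 and 1123 in depleted libraries. Every Cisplatin-treated library was below every untreated one. Cisplatin lowered CDH1 3.12-fold in control cells (edgeR adjusted p = 8.62e-06) and 2.77-fold in depleted cells (1.88e-05). Depletion lowered it 1.44-fold in untreated cells (log2 -0.53 ± 0.17 SE, adjusted p = 0.0414), and that call rested on single libraries. It was lost without replicate 2 of both control conditions (-0.36, adjusted p = 0.0572), with library size alone as the scaling (0.0653), and without replicate 1 (adjusted p = 0.0608) or 2 (0.115) of the untreated controls, any untreated depleted library (0.0784, 0.0504 and 0.151 without replicates 1 to 3), replicate 3 of the Cisplatin-treated controls (0.052) or replicate 1 of the depleted cells with Cisplatin (0.0578). In Cisplatin-treated cells the log2 difference was -0.35 ± 0.18 (adjusted p = 0.124) and the ranges overlapped. It passed without replicate 2 of the depleted cells with Cisplatin (-0.58, adjusted p = 0.0259).

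N-cadherin, the cadherin of mesenchymal and neural cells, fell under both treatments. CDH2 (ENSG00000170558.4, chr18:25530930-25757410, minus strand) had counts of 535, 589 and 705 in untreated control libraries, and 98.0, 87.3 and 139 in untreated depleted libraries. With Cisplatin the counts were 287, 218 and 429 in control libraries, against 32.9, 28.2 and 43.2 in depleted libraries. The 4 conditions did not overlap in any pair. The depletion lowered CDH2 5.63-fold in untreated cells (edgeR adjusted p = 3.48e-05) and 8.75-fold in Cisplatin-treated cells (1.42e-05), and the call held without any single library. Cisplatin lowered it 1.93-fold in control (adjusted p = 0.00481) and 3.01-fold in depleted cells (0.000541), and the difference between these effects, -0.64 ± 0.38 on the log2 scale, did not pass (adjusted p = 0.363). Without replicate 1 of the untreated or replicate 3 of the Cisplatin-treated controls, the fall in control cells passed the 2-fold limit (log2 -1.04 and -1.25). Both cadherins, the epithelial and the mesenchymal, thus had negative log2 changes in all 4 comparisons, of which that of CDH1 upon depletion in Cisplatin-treated cells did not pass.

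EPCAM, an adhesion molecule and a marker of epithelial cells, gave the largest rise upon depletion among the 10 genes. Its counts (ENSG00000119888.6, chr2:47572297-47614740, plus strand) were 257, 668 and 204 in untreated control libraries and 3102, 3388 and 3549 in untreated depleted libraries. With Cisplatin they were 133, 296 and 132 in control and 1425, 1856 and 1608 in depleted libraries. All depleted libraries were above all control libraries, and in both control conditions replicate 2 was the highest. The depletion raised EPCAM 8.91-fold in untreated (edgeR adjusted p = 0.000166) and by 3.17 on the log2 scale in Cisplatin-treated cells (0.000138). Over both treatments the log2 change was 3.16 ± 0.28, and 3.77 without replicate 2 of both control conditions. In bulk RNA, more cells that express EPCAM and more EPCAM RNA per cell cannot be told apart.

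Cisplatin lowered EPCAM in depleted cells by 0.99 ± 0.37 on the log2 scale (edgeR adjusted p = 0.0351), and the 6 libraries did not overlap between treatments. That call was lost without any single one of these 6 libraries (adjusted p = 0.0516 to 0.0979), while without any one of the 3 Cisplatin-treated controls, which share the estimate of spread, the fall passed and exceeded 2-fold (log2 -1.03). In control cells the log2 change was -1.01 ± 0.40 (adjusted p = 0.0512), with overlapping ranges. With the replicate numbers of the control libraries as pairs it was -0.92 and passed (adjusted p = 0.000213). Without replicate 2 of both control conditions it was -0.78 (adjusted p = 0.000454), but without replicate 2 of the untreated controls alone it was -0.29 (adjusted p = 0.411). It passed without replicate 1 (0.0313) or 3 (0.0144) of the untreated controls and without replicate 2 of the Cisplatin-treated controls (0.00863). The fall of EPCAM over both populations, 1.996-fold, lay at the 2-fold limit and exceeded it without replicate 1 or 3 of the untreated controls, replicate 2 of the Cisplatin-treated controls, replicate 1 of the untreated or replicate 2 of the depleted cells with Cisplatin (log2 -1.02 to -1.21).

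Vimentin had the highest level of the 10 genes per length of transcript in every condition. VIM (ENSG00000026025.9, chr10:17270258-17279592, plus strand) had counts of 41338, 25004 and 40241 in untreated control libraries and 19575, 17354 and 18315 in untreated depleted libraries. With Cisplatin the counts were 33600, 21600 and 33090 in control and 17940, 15093 and 18854 in depleted libraries. Depleted libraries were below control libraries at both treatments, and replicate 2 was the lowest in both control conditions. The depletion lowered VIM 1.92-fold in untreated (edgeR adjusted p = 0.00412) and 1.65-fold in Cisplatin-treated cells (0.0104). Without replicate 2 of both control conditions the log2 change over both treatments was -1.02 in place of -0.83, which took VIM past the 2-fold limit. Without replicate 2 of the untreated controls alone, the fall in untreated cells also passed that limit (-1.13). For Cisplatin in control cells the log2 change was -0.26 ± 0.19 (adjusted p = 0.282). It was -0.25 and passed with the control libraries as pairs (adjusted p = 0.00932), and also without replicate 2 of both control conditions (-0.27, adjusted p = 0.0201) or of the untreated controls alone (-0.45, 0.027). In depleted cells the value was -0.04 ± 0.19 (adjusted p = 0.862).

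Fibronectin, the secreted glycoprotein that cells bind through integrins, gave the largest fall upon depletion over both treatments, while in Cisplatin-treated cells CDH2 fell as much. FN1 (ENSG00000115414.14, chr2:216225163-216300895, minus strand) had counts of 6623, 8335 and 4781 in untreated control libraries and 728, 676 and 549.1 in untreated depleted libraries. With Cisplatin the counts were 3483, 2855 and 3016 in control and 303, 372 and 363 in depleted libraries. The ranges of the 4 conditions did not touch. The depletion lowered FN1 10.0-fold in untreated cells (log2 -3.33 ± 0.19, edgeR adjusted p = 6.07e-07) and 8.75-fold in Cisplatin-treated cells (log2 -3.13 ± 0.19, adjusted p = 7.95e-07). Cisplatin lowered it 2.09-fold in control (adjusted p = 0.000237) and 1.82-fold in depleted cells (0.00157). The call at 2-fold in control cells was lost without replicate 2 of the untreated (log2 -0.85) or of the Cisplatin-treated controls (-0.999), while the fall still passed. Over both populations the fall of 0.97 on the log2 scale exceeded 2-fold without replicate 3 of the untreated (-1.05) or replicate 1 of the Cisplatin-treated controls (-1.01), or replicate 3 of the untreated (-1.03) or replicate 2 of the depleted cells with Cisplatin (-1.02). Beside these falls of VIM, FN1 and CDH2, the fibroblast markers differed among themselves. The mean count of LUM was 17.0 in untreated control and 80.5 in untreated depleted cells, and 11.4 and 41.7 with Cisplatin, and LUM carries the sums given above. Those of PDGFRA (14.3 and 12.3, and 14.8 and 9.42 with Cisplatin), PDGFRB (6.24 and 2.29, and 13.98 and 5.96) and COL6A3 (5.23 and 3.29, and 2.04 and 0.815) were lower in depleted cells, THY1 was at 0.872 to 4.99 and DCN was near 0. The part of such cells in the result was not tested.

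SNAI1, a zinc-finger repressor that binds the CDH1 promoter, was the only one of the 10 genes to pass the test of a difference in Cisplatin response between control and depleted cells. SNAI1 (ENSG00000124216.3, chr20:48599536-48605423, plus strand) has 2 introns of 682 and 3520 nt in its 1 annotated transcript. Because the share of its reads that fell in introns differed between conditions (values further on), the splice sites of both introns are shown, as 10 exon bases in capitals and 20 intron bases in lower case, read from the GRCh37 genome.
SNAI1 intron 1, 5′ splice site, chr20:48599669-48599698: TCTAATCCAGgtgcgttggaggggttctgg
SNAI1 intron 1, 3′ splice site, chr20:48600341-48600370: ctctgctttttctccctcagAGTTTACCTT
SNAI1 intron 2, 5′ splice site, chr20:48600879-48600908: ACCCACACTGgtacgtgcccctccaggcgc
SNAI1 intron 2, 3′ splice site, chr20:48604389-48604418: ttctggcgttctctccccagGCGAGAAGCC

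All 4 windows hold the usual gt or ag at the intron end. The counts of SNAI1 were 139, 167 and 98.9 in untreated control libraries and 129, 153 and 125 in untreated depleted libraries, so that the ranges overlapped. With Cisplatin they were 227, 328 and 197 in control libraries and 639, 480 and 798 in depleted libraries, which were the highest of the 4 conditions. Cisplatin raised SNAI1 1.87-fold in control cells (edgeR adjusted p = 0.00739) and 4.86-fold in depleted cells (7.67e-06). The rise in control cells passed the 2-fold limit without replicate 2 of the untreated (log2 1.09) or replicate 3 of the Cisplatin-treated controls (1.07). The difference between the responses of control and depleted cells, 1.38 ± 0.34 on the log2 scale, passed (adjusted p = 0.0448), where 4.25% of all genes did so (1.98% higher and 2.27% lower) and 1.28% also differed at least 2-fold. It passed in 4 of the 12 fits that left out 1 library, and its adjusted p was 0.118 when replicate 3 was left out of the depleted group with Cisplatin. The other libraries whose loss ended the call were replicate 1 of the untreated controls (0.0757), replicates 1 (0.1) and 3 (0.0977) of the Cisplatin-treated controls, the 3 untreated depleted libraries (0.113, 0.074 and 0.102) and replicate 1 of the depleted cells with Cisplatin (0.102). Without replicate 2 of both control conditions the difference was 1.42 (adjusted p = 0.0038).

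The depletion left SNAI1 within the spread of the controls in untreated cells (log2 0.02 ± 0.25, edgeR adjusted p = 0.964) and raised it 2.63-fold in Cisplatin-treated cells (0.000725). Over both treatments the log2 change of 0.75 passed (adjusted p = 0.0286). It no longer did so without replicate 1 (0.0871) or 3 (0.0853) of the Cisplatin-treated controls, or without replicate 1 (0.0662) or 3 (0.063) of the depleted cells with Cisplatin.

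SNAI2, a second repressor of the same family, had the highest ratio of Cisplatin-treated to untreated reads of the 10 genes. Per length of transcript its mean level in untreated cells was the lowest of the 10, in control cells not separated from that of ESRP1. Its libraries held 6, 7 and 11 reads in untreated control cells, 36, 50 and 74 in control cells with Cisplatin, 2, 5 and 2 in untreated depleted cells and 48, 34 and 62 in depleted cells with Cisplatin. Every Cisplatin-treated library was above every untreated one. After scaling for library depth, the summed reads were 5.90 times higher with Cisplatin in control cells (160 against 24 reads, 95% counting interval 3.83 to 9.48) and 18.7 times higher in depleted cells (144 against 9 reads, 9.55 to 41.6). No p is given for these ratios, because the gene entered the test through its Cisplatin-treated libraries. The difference between the responses of control and depleted cells, 1.71 ± 0.64 on the log2 scale, did not pass (edgeR adjusted p = 0.146). For the depletion in untreated cells the ratio of summed reads was 0.389 (9 against 24 reads, 0.159 to 0.867). The 3 depleted libraries were below the 3 control libraries, but the test across libraries did not pass (log2 -1.32 ± 0.55, adjusted p = 0.0935). In Cisplatin-treated cells the ratio was 1.23 (0.974 to 1.55) and the ranges overlapped. These intervals cover counting error only.

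ZEB1, a zinc-finger and homeodomain repressor that acts against the epithelial splicing program, fell in each of the 4 comparisons. ZEB1 (ENSG00000148516.17, chr10:31607424-31818742, plus strand) had counts of 1033, 800 and 960 in untreated control libraries and 663, 544 and 518 in untreated depleted libraries. With Cisplatin the counts were 695, 720 and 732 in control and 396, 388 and 338 in depleted libraries. The groups were apart in each of the 4 comparisons. The depletion lowered ZEB1 1.61-fold in untreated (edgeR adjusted p = 0.00129) and 1.86-fold in Cisplatin-treated cells (0.000167). Cisplatin lowered it 1.29-fold in control (adjusted p = 0.0192) and 1.49-fold in depleted cells (0.00134). The former call was lost without replicate 1 (0.083) or 3 (0.0555) of the untreated or replicate 1 (0.0654) of the Cisplatin-treated controls, and with library size alone as the scaling (-0.26, 0.0732). None of these changes reached 2-fold.

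TWIST1, a basic helix-loop-helix factor, stood between 113 and 155 counts in all 12 libraries. Its log2 changes were 0.13 ± 0.14 for the depletion in untreated cells, 0.01 ± 0.14 in Cisplatin-treated cells, -0.07 ± 0.14 for Cisplatin in control cells and -0.18 ± 0.14 for Cisplatin in depleted cells, and none passed (edgeR adjusted p = 0.293 to 0.97). The 3 depleted libraries with Cisplatin, at 119 to 136, lay just below the 3 without, at 136.4 to 155. Among the repressors, then, SNAI1 rose with Cisplatin and ZEB1 fell.

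ESRP1, an RNA-binding protein that directs epithelial splicing, rose upon depletion, as EPCAM did. Its counts were 25.3, 77.7 and 20.4 in untreated control libraries and 240, 248 and 151 in untreated depleted libraries. With Cisplatin they were 12.4, 29.7 and 16.1 in control libraries and 87.4, 102 and 57.7 in depleted libraries. The depleted libraries were above the control libraries at each treatment, and replicate 2 was again the highest control library. The depletion raised ESRP1 5.17-fold in untreated (edgeR adjusted p = 0.0025) and 4.37-fold in Cisplatin-treated cells (0.00458), and over both treatments by 2.26 ± 0.33 on the log2 scale (2.94 without replicate 2 of both control conditions). Cisplatin lowered ESRP1 2.49-fold in depleted cells (adjusted p = 0.0193), a call that was lost without replicate 1 (0.0581) or 2 (0.0638) of the untreated or replicate 3 (0.0785) of the depleted cells with Cisplatin. In control cells its log2 change of -1.08 ± 0.50 did not pass (adjusted p = 0.0877), with overlapping ranges. With the control libraries as pairs it was -0.97 and passed (adjusted p = 0.015), and it also passed without replicate 3 of the untreated (0.0328) or replicate 2 of the Cisplatin-treated controls (0.0418). Without replicate 2 of the untreated controls it was -0.22 (adjusted p = 0.686), and without replicate 2 of both control conditions -0.64 (0.22). The called fall over both populations (log2 -1.22) was -0.96 without that library and so under the 2-fold limit.

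Across the 12 libraries, the pairs of genes with the highest Pearson correlation of log2 values were CDH2 and FN1 (0.958), EPCAM and ESRP1 (0.945) and CDH2 and ZEB1 (0.929). CDH1 ran opposite to SNAI2 (-0.906) and SNAI1 (-0.835) and was nearly unrelated to EPCAM (0.0248). The 12 values of each gene share the 4 conditions and the library depths, so these are descriptions of the conditions. Among genes whose mean was 10 CPM or more (read counts scaled to the library total), those most like EPCAM were CEACAM5 (0.992) and NID2 (0.991), those most like FN1 were ANXA4 (0.991) and CA12 (0.987), and those most like SNAI1 were MOAP1 and FASTKD5 (both 0.984). The best match of TWIST1 was HECTD4, at 0.829.

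The order of the genes by level, as normalised counts per kb of merged exons, changed with the depletion. In untreated control cells VIM stood first at 16330 ± 4196 (SD, n = 3), followed by CDH1 at 1212 ± 227 and FN1 at 723 ± 195, each apart from the next. EPCAM (168 ± 114), ZEB1 (158 ± 20.2) and CDH2 (123 ± 17.5) followed, and EPCAM was not separated from ZEB1, nor ZEB1 from CDH2. In untreated depleted cells VIM was at 8463 ± 512, EPCAM came next at 1495 ± 101 and then CDH1 at 837 ± 142. FN1 fell to 71.6 ± 10.1, the seventh place by mean, not separated from SNAI1 at 80.4 ± 8.88. In depleted cells with Cisplatin SNAI1 came next after EPCAM at 379 ± 94.3, not separated from CDH1 at 293 ± 65.8, and CDH2 was last at 7.03 ± 1.55. SNAI2 was last by mean in both untreated conditions, at 3.51 ± 1.15 in control and 1.35 ± 0.70 in depleted cells. In control cells it was not separated from ESRP1 at 9.42 ± 7.27.

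**Figure D3:**
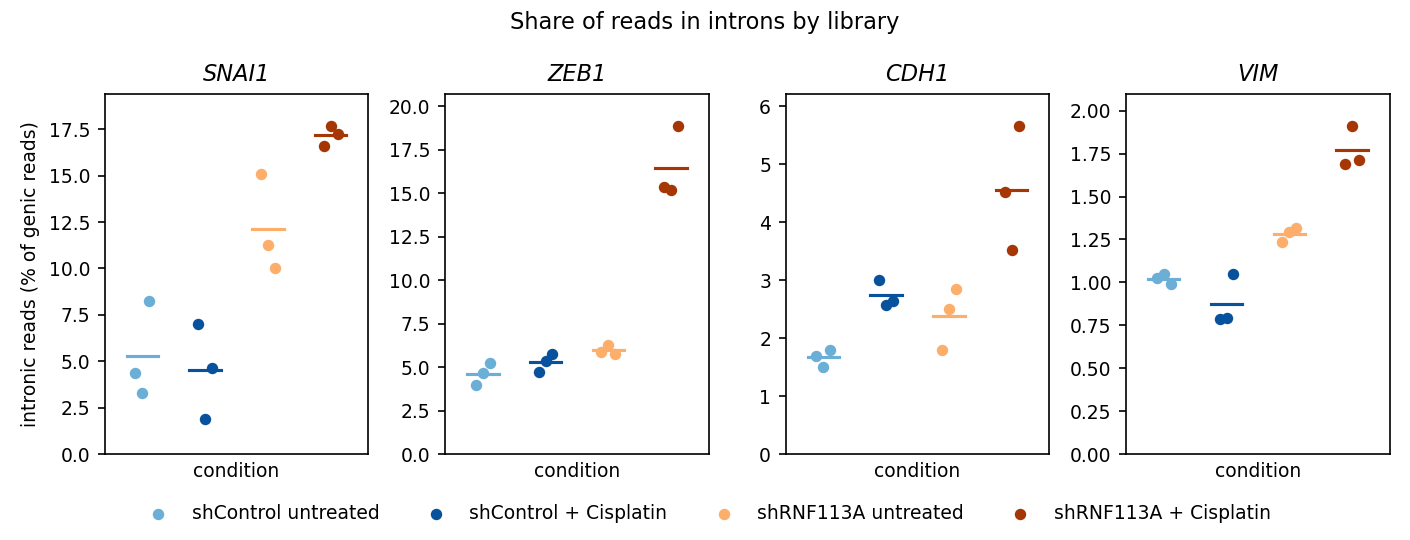
Reads in introns as a percentage of all reads in the gene, for SNAI1, ZEB1, CDH1 and VIM (each panel has its own axis from 0), with a point for each library and a bar at the mean of 3 libraries. Depleted cells with Cisplatin have the highest mean share for all 4 genes, 17.2% for SNAI1, 16.5% for ZEB1, 4.56% for CDH1 and 1.77% for VIM.

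Since RNF113A belongs to the spliceosome, reads in introns were set against reads in exons, in a model where every library has its own term, which removes differences in expression level. Of the 10 genes, 8 had enough intronic reads, and CDH2 and SNAI2 did not. SNAI1, EPCAM and ESRP1 reached this only through their depleted libraries, and FN1 only through its control libraries. In Cisplatin-treated cells the depletion raised the ratio of intronic to exonic reads of SNAI1, ZEB1, VIM and CDH1. This was the common behaviour of genes in this comparison, in which 82.6% of the 11376 genes tested passed (82.3% higher) with a median log2 change of 0.965.

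For SNAI1, whose splice sites are given above, intronic reads made up 4.35%, 3.32% and 8.26% of the reads in untreated control libraries and 7.03%, 1.91% and 4.62% in control libraries with Cisplatin. In depleted libraries they made up 15.1%, 11.2% and 10.0% without and 16.6%, 17.7% and 17.2% with Cisplatin. All depleted libraries were above all control libraries. The depletion raised the ratio by 2.22 ± 0.33 on the log2 scale in Cisplatin-treated cells (edgeR adjusted p = 1.09e-05) and by 1.39 ± 0.44 in untreated cells (0.0261). SNAI1 entered this test through its depleted libraries, since control libraries held 6 to 9 of its intronic reads untreated and 7 to 17 with Cisplatin. Its calls therefore give no support for the rise. Untreated libraries held only 6 to 22 intronic reads of SNAI1. The call in untreated cells was lost without replicate 1 (0.0648) or 2 (0.139) of the untreated controls or replicate 1 (0.1) or 2 (0.0803) of the untreated depleted cells. SNAI1 was the only 1 of the 8 genes to pass in untreated cells, where 28.6% of all genes passed (28.4% higher) with a median of 0.466. It was not among those that passed for Cisplatin in either population.

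ZEB1 kept a low intronic share in 3 conditions, at 3.97% to 5.23% in untreated control libraries, 4.72% to 5.76% in control libraries with Cisplatin and 5.76% to 6.25% in untreated depleted libraries. In depleted libraries with Cisplatin it was 15.2% to 18.9%. The ratio rose by 1.81 ± 0.22 on the log2 scale upon depletion in Cisplatin-treated cells (edgeR adjusted p = 2.05e-06) and by 1.62 ± 0.22 with Cisplatin in depleted cells (3.61e-06), and both held without any single library. In the latter comparison 66% of all genes passed (65.2% higher), with a median of 0.755. In both comparisons the total count of ZEB1 fell. It also fell upon depletion in untreated cells and with Cisplatin in control cells, where the intronic ratio did not pass (adjusted p = 0.181 and 0.556). A link between the 2 was not tested.

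The intronic share of CDH1 was 1.67% ± 0.15 (SD, n = 3) in untreated control and 4.56% ± 1.07 in depleted libraries with Cisplatin. Its ratio rose with Cisplatin in control cells (log2 0.74 ± 0.22, edgeR adjusted p = 0.0238), where 18.8% of all genes passed (17.6% higher) with a median of 0.287. It also rose with Cisplatin in depleted cells (0.96 ± 0.23, 0.00111) and upon depletion in Cisplatin-treated cells (0.73 ± 0.24, 0.00752). The call in control cells was lost without replicate 1 (0.0537) or 2 (0.0977) of the untreated or replicate 1 (0.0952) of the Cisplatin-treated controls, and the last one without replicate 3 of the depleted cells with Cisplatin (0.0533). The ratio of VIM rose upon depletion in Cisplatin-treated cells (1.03 ± 0.16, adjusted p = 1.8e-05), where its share went from 0.789% to 1.05% up to 1.69% to 1.91%. With Cisplatin in depleted cells it rose by 0.47 ± 0.16 (0.0142), a call lost without replicate 1 of the untreated (0.0555) or replicate 2 of the depleted cells with Cisplatin (0.0658). EPCAM, FN1, TWIST1 and ESRP1 did not pass in any of the 4 comparisons.

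At the level of single splicing events, few changes were found in the 10 genes. Of the events with at least 10 reads in every library, 38 belonged to these genes for the depletion in untreated cells, 32 for the depletion in Cisplatin-treated cells, 46 for Cisplatin in control cells and 24 for Cisplatin in depleted cells. None was called, that is, passed with an inclusion difference of at least 20 percentage points, where the shares over all events were 0.058%, 0.172%, 0.0681% and 0.283%. At an adjusted p under 0.05 alone, 2 retained introns of VIM passed for the depletion in Cisplatin-treated cells, with means going from 0.423% to 0.884% and from 0.353% to 0.701%. They passed in 5 and 4 of the 6 fits that left out 1 library. There, 26% of retained intron events passed. The FN1 exon of 270 nt (chr2:216245534-216245803, the length of the EDA exon) was included in 63.9% ± 6.5 (SD, n = 3) of untreated control and 62.1% ± 5.5 of untreated depleted transcripts. The FN1 exon with the length of the EDB exon (chr2:216257654-216257926) was included in 40.9% ± 3.7 and 28.7% ± 4.0, and the ranges were apart, but the difference did not pass (edgeR adjusted p = 0.699). Depleted libraries held as few as 19 reads for it.

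Transcripts known as ESRP targets (CTNND1, CD44, ENAH and FGFR2) were examined because ESRP1 rose upon depletion. The related gene ESRP2, at a mean of only 15.3 normalised counts, also had a positive log2 change upon depletion (1.635). With Cisplatin its log2 change was positive too (1.756), where ESRP1 fell. The part of either gene in the splicing changes was not tested. CTNND1 encodes p120-catenin, which binds cadherins at the membrane, and epithelial cells are known to leave out exons near its 5′ end that mesenchymal cells include. In untreated cells 5 skipped exon events of CTNND1 were called for the depletion, all with lower inclusion, out of 79 tested events of the 4 genes. Over all 59639 skipped exon events 0.0134% were called and 0.0939% passed, so that 5 of the 8 called events were of CTNND1. The 5 events overlap and share reads. They concern an exon of 119 nt and an exon of 289 nt, the latter also with 3′ splice sites that shorten it to 182 or 180 nt. The splice sites of both exons are shown with exon bases in capitals, read from GRCh37, because these are the exons whose use changed.
CTNND1 119-nt exon, 3′ splice site, chr11:57556489-57556518: tccttcaaatatttctgcagCTCTCTCCTT
CTNND1 119-nt exon, 5′ splice site, chr11:57556618-57556647: CTCTTAACAGgtgtgtatggaaatatgttt
CTNND1 289-nt exon, 3′ splice site, chr11:57558837-57558866: ctcttaccctttcccggtagTGTGAAGTGA
CTNND1 289-nt exon, 5′ splice site, chr11:57559136-57559165: CCGGCATCAGgtaacccctctctccatcag

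The 119-nt exon of CTNND1 (chr11:57556509-57556627) was included in 63.9%, 69.6% and 74.1% of transcripts in the untreated control libraries and in 45.3%, 38.4% and 39.8% in the untreated depleted libraries. The means were 69.2% ± 5.1 and 41.1% ± 3.7 (SD, n = 3, edgeR adjusted p = 0.0016), from 264 to 395 reads per library. This event compares transcripts that join the exon ending at 57529518 to the exon starting at 57561482 with those that hold the 119-nt exon between them. The 289-nt exon (chr11:57558857-57559145) went from 64.8%, 72.9% and 75.7% to 49.9%, 45.1% and 44.7% (adjusted p = 0.00292). In both, the groups did not overlap. Both calls held in 2 of the 6 fits that left out 1 library, and without the other 4 the adjusted p was 0.0734 to 0.3 for the 119-nt exon and 0.0837 to 0.3 for the 289-nt exon. The tables do not name which replicate each value belongs to. In Cisplatin-treated cells the 119-nt exon was included in 68.1%, 65.8% and 69.6% of control and 57.2%, 51.8% and 53.9% of depleted transcripts. Those groups were also apart, but the difference did not pass (adjusted p = 0.469), nor did that of the 289-nt exon (69.3% against 59.1%, adjusted p = 0.709).

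**Figure D4:**
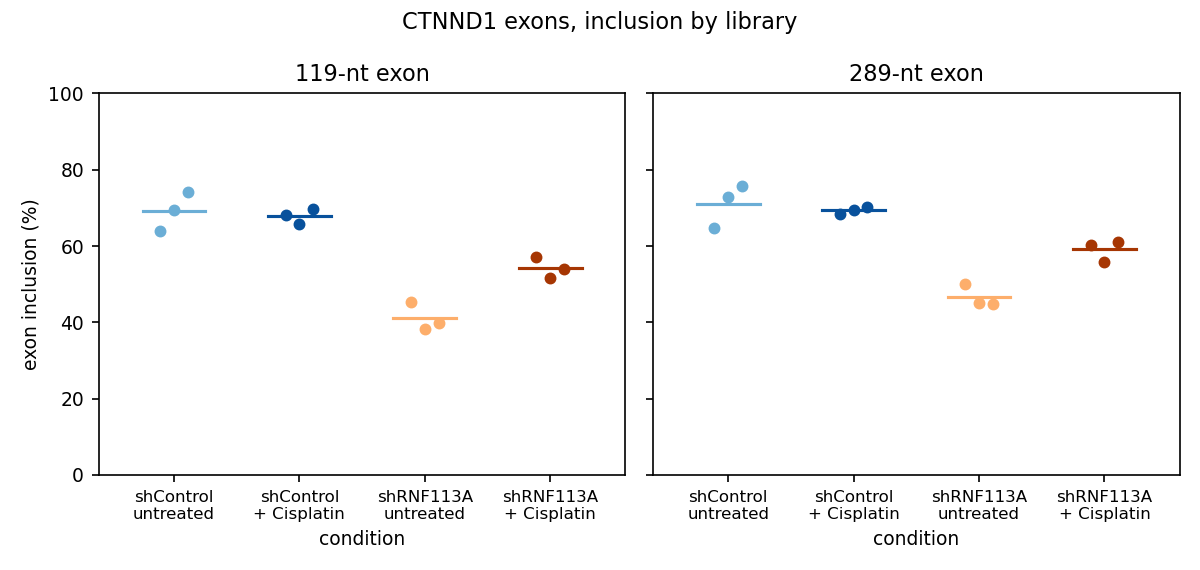
Inclusion of the 119-nt and the 289-nt exon of CTNND1 in percent of transcripts, with a point for each library and a bar at the mean of 3 libraries of each condition. The untreated depleted libraries lie lowest in both panels, at 38.4% to 45.3% and 44.7% to 49.9%, and the control libraries lie at 63.9% or above.

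Where the 119-nt exon was read as an alternative to a downstream exon of 72 nt, its use fell from 41.9%, 41.1% and 43.5% to 29.8%, 27.4% and 29.6% upon depletion in untreated cells (edgeR adjusted p = 0.000149). In Cisplatin-treated cells it fell from 45.0%, 40.8% and 46.7% to 34.7%, 33.6% and 33.1% (adjusted p = 0.000574). These differences stayed under the 20-point limit but passed in all 6 fits that left out 1 library. Among all events of mutually exclusive exons, 0.431% and 2.79% passed in the respective comparisons. The count of CTNND1 itself is uncertain, since its exons overlap the read-through gene TMX2-CTNND1 and such reads are not assigned.

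In CD44, a hyaluronan receptor whose variable exons are known to be included under ESRP1, small rises passed. A variable exon of 102 nt (chr11:35229652-35229753) was included in 1.27%, 0.955% and 1.25% of transcripts in untreated control and 3.93%, 5.27% and 2.31% in untreated depleted libraries (edgeR adjusted p = 9.83e-05), and its groups did not overlap. With Cisplatin it went from 0.419% ± 0.078 to 1.59% ± 0.50 (adjusted p = 0.0017). Neither reached the 20-point limit, and each passed in 4 of 6 fits that left out 1 library. No event of ENAH or FGFR2 passed in any comparison.

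Other genes of the epithelial and mesenchymal states were taken from lists chosen by their known roles. Of 24 epithelial junction and regulator genes, 21 were tested. Upon depletion 11 were higher, 1 was lower and 9 did not pass, with a median log2 change of 0.45, beside the 23.5% and 24% of all genes given above. OVOL1, ESRP2 and ST14, at low mean normalised counts of 5.06, 15.3 and 14.2, are among the higher genes. The 1 lower gene, OCLN, was at 551. Such low genes may have entered the test through the libraries where they are high, so the counts give no support for them. MAL2, a membrane protein of apical transport, rose 6.64-fold (log2 2.73 ± 0.26, edgeR adjusted p = 4.07e-06), and OVOL2, a repressor of ZEB1, rose as well (2.38 ± 0.14, 7.97e-08). The tight junction gene CLDN4 rose 2.98-fold (adjusted p = 0.000222) and the polarity gene CRB3 2.10-fold (0.000133). With Cisplatin 8 were higher, 5 lower and 8 did not pass, beside 34.8% higher and 32.1% lower among all genes, and CLDN4 rose 2.13-fold (0.00137).

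Of 22 mesenchymal matrix, cytoskeleton and regulator genes, 20 were tested. Upon depletion 8 were higher, 7 lower and 5 did not pass, with a median of 0.11, beside 23.5% and 24% of all genes, so that the list did not follow VIM, FN1 and CDH2 as a whole. CDH11, a cadherin of mesenchymal cells, rose 6.52-fold (log2 2.70 ± 0.35, edgeR adjusted p = 5.32e-05) and the matrix gene TNC 4.69-fold (2.23 ± 0.29, 5.51e-05), while ITGB3, an integrin subunit, fell 2.68-fold (0.00136) and the ligand WNT5A 2.78-fold (0.00299). With Cisplatin 6 were higher, 8 lower and 6 did not pass, against 34.8% and 32.1% of all genes. Low genes stand on both sides. COL3A1 (mean 10.6) is among the higher and SPARC (10.9) among the lower upon depletion. With Cisplatin SNAI3 (23.5) is among the higher and SPARC among the lower. These too may have entered the test through the libraries where they are high, so the counts give no support for them. ACTA2, smooth muscle actin, rose 4.64-fold (6.12e-07), and CDH11, ITGB3 and TNC fell by 2.20, 2.00 and 1.86 on the log2 scale (7.37e-05, 3.43e-05 and 6.59e-05).

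Of 11 TGF-beta ligands, receptors and targets, 1 was higher and 4 lower upon depletion over both treatments, and 6 did not pass. Among all genes 23.5% were higher and 24% lower. None of the 11 reached 2-fold, where 11% of all genes were called. With Cisplatin 4 were higher, 4 lower and 3 did not pass, close to the 34.8% and 32.1% of all genes. LTBP1, which holds latent TGF-beta in the matrix, fell 17.4-fold (log2 -4.12 ± 0.33, edgeR adjusted p = 1.25e-07), from 1219 ± 855 to 63.0 ± 38.5 normalised counts in control cells and from 1332 ± 86.4 to 81.8 ± 11.01 in depleted cells. The receptors TGFBR2 and TGFBR3 fell 2.51-fold and 2.49-fold (2.66e-09 and 3.15e-06), while the ligand TGFB3 rose 3.29-fold (1.81e-05).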

How the data were processed

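The mRNA libraries of 4 conditions, 3 each, of A549 cells were analysed. Per the labels and the study's methods, the authors made strand-specific libraries, trimmed the reads and aligned them to hg19 with STAR 2.5.2b. The deposited STAR tables give raw read counts per gene, and the strand-specific column was used, without the 14.0% to 22.6% of read pairs assigned to no gene. Deposited HTSeq counts of exonic and genic reads (Gencode v19, protein-coding) gave intronic reads as the difference, and the deposited rMATS tables gave inclusion and skipping read counts per event with effective lengths, from which inclusion levels were computed. The authors' own fold changes and p-values were not used.

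Tests used edgeR 4.0.16 (quasi-likelihood, TMM, filterByExpr) in R 4.3.3 over all genes or events with Benjamini-Hochberg adjustment at 0.05. The depletion and Cisplatin effects over both levels of the other factor came from an additive model, and effects within a condition and their difference from a model with an interaction. Values shown are counts divided by DESeq2 1.42.0 size factors, with SDs over 3 libraries. Standard errors of log2 changes were derived from each test, as the absolute change over the square root of its F value. They are unreliable for changes near 0. Intronic against exonic reads needed at least 10 intronic reads in 3 libraries, and events at least 10 reads in every library, each with a term per library. SNAI2 ratios carry exact 95% binomial intervals. In simulated data, 197, 198 and 166 of 200 changed genes were found for Cisplatin, the depletion and their interaction (15087 genes), 200 of 200 for intronic reads upon depletion in untreated cells (11304 genes) and 195 of 200 skipped exons for the depletion in Cisplatin-treated cells (59768 events). The changed genes and events of these simulations were drawn from those with more reads. The recovered shares therefore do not cover members with few reads, SNAI2 and the intronic reads of SNAI1 among them. Figures were drawn with matplotlib 3.10.9.

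All 10 genes were named in every comparison. From each further list, up to 4 genes per effect were named, ranked by fold change, if called and at 1 CPM or more on average, and for each of the 10 the 2 genes of closest pattern were found. The genes, lists and tests were chosen with earlier results of these data known. Alternatives were other scalings, filters, unstranded counts, DESeq2, a replicate block and leaving out each library, and, added after seeing the data, leaving out replicate 2 of both control conditions. The replicate numbers were checked for pairing over 9779 genes. Deviations of same-numbered control libraries correlated with r = 0.635, 0.733 and 0.479, and those of the depleted libraries with 0.411, -0.0725 and 0.295. The main tests used no pairs, so their adjusted p for Cisplatin in control cells leave this pairing out. Fits with the libraries as pairs are given as alternatives only. Sequences came from the GRCh37 genome.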

Additional observations from a re-analysis of the deposited data

Results flagged for a closer look

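The response of SNAI1 to Cisplatin differed between control and RNF113A-depleted cells by 1.375 on the log2 scale (standard error 0.34, edgeR adjusted p = 0.0448 for the interaction), with normalised counts going from 135 ± 34.0 to 251 ± 68.7 in control cells and from 136 ± 15.0 to 639 ± 159 in depleted cells (SD, n = 3). It was singled out because the difference between the populations itself passed the test. It passed in 4 of the 12 fits that left out 1 library, the log2 values of which ran from 1.18 to 1.57, and not with library size alone as the scaling (adjusted p = 0.0546). The share of intronic reads of SNAI1 was also highest in depleted cells with Cisplatin, and its part in the count was not tested.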

How the results depend on the processing

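The results were recomputed under 901 combinations of result and alternative. Of the values of single genes 659 kept their direction and side of the threshold, 15 newly passed, 13 no longer passed and 26 changed sign, the latter all in values that did not pass. Of the counts, 172 stayed within 1.5 times and 16 did not, and the cause was not tested except where fewer reads or libraries entered.

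With library size alone as scaling, TWIST1 and VIM changed sign for Cisplatin, in control (0.031) and depleted cells (0.049). In the same fit 0 members passed the interaction and 0 were called, where 588 and 180 of 15352 genes did. For TWIST1 upon depletion in Cisplatin-treated cells, unstranded counts, median-ratio factors, no filter, DESeq2 and leaving out replicate 2 of both control conditions gave -0.016, -0.030, -0.0057, -0.033 and -0.081. The same alternatives gave -0.0058, -0.016, -0.0049, -0.026 and -0.21 for the EPCAM interaction. Without replicate 2 of both control conditions, chosen after seeing the data, the depletion effect of SNAI2 was 0.0074, the Cisplatin effect of TWIST1 in control cells 0.012 and the FN1 interaction -0.079. EPCAM in depleted cells no longer passed for Cisplatin with DESeq2 or library size alone, nor, with the latter, did ZEB1 for Cisplatin in control cells, CDH1 for the depletion in untreated cells or the SNAI1 interaction.

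With 1 library left out, the members called for Cisplatin in control cells numbered 3 to 5, and those that passed or were called for the interaction 0 to 1. The values that changed sign ran from -0.38 to 0.081 (SNAI2, depletion), -0.13 to 0.027 (TWIST1, Cisplatin in control cells), -0.11 to 0.010 (VIM, Cisplatin in depleted cells), -0.16 to 0.21 (SNAI1, depletion in untreated cells) and -0.13 to 0.040 (TWIST1, depletion in Cisplatin-treated cells). In the interaction they ran from -0.052 to 0.32 for CDH1, -0.70 to 0.47 for EPCAM, -0.010 to 0.41 for VIM, -0.016 to 0.38 for FN1 and -1.10 to 0.15 for ESRP1.

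The number of members that passed for intronic reads was 0 to 1 (Cisplatin in control cells), 2 to 5 (Cisplatin in depleted cells) and 0 to 3 (depletion in untreated cells) with 1 library left out. With at least 50 intronic reads in every library, which leaves fewer genes, it was 0 for the depletion in untreated and 2 in Cisplatin-treated cells. Where SNAI1 is among the members counted with 1 library left out, the count gives no support for it. The called events of ESRP targets numbered 0 to 5 for the depletion in untreated cells and 0 to 1 for Cisplatin in depleted cells with 1 library left out. With a limit of 0.1 on the inclusion difference, they were 8 and 1, and 1 for the depletion in Cisplatin-treated cells. Depth limits SNAI2 and the intronic reads of several members, SNAI1 among them, in untreated cells.

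Pairing by replicate number was also fitted as a block over all libraries. It left 8, 8, 8, 8, 7, 8 and 1 members passing for Cisplatin, depletion, Cisplatin in control and in depleted cells, depletion in untreated and Cisplatin-treated cells and the interaction. Of all 15352 genes tested, 10369, 7401, 8753, 9564, 4527, 6987 and 691 passed in the same order. The block turned the EPCAM interaction to -0.060, and CDH1 passed upon depletion in Cisplatin-treated cells (-0.38, adjusted p = 0.0243). Deviations of same-numbered libraries correlated with r = -0.204 to 0.138 between control and depleted cells. Within the depleted cells r was 0.411, -0.0725 and 0.295 for replicates 1 to 3. With the control libraries as 3 pairs 9 members passed in place of 6, as given beside EPCAM, VIM and ESRP1. In that fit 9110 of 14719 genes passed. With the depleted libraries as 3 pairs 8 members passed and 6 were called, where 10679 and 3369 of 14623 genes did. SNAI2 is among the members in each of these counts, which give no support for it.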
